A study of Mus musculus with 6 samples.

Results

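The sarcomeric myosin heavy chains examined here were 8 genes, Myh1, Myh2, Myh3, Myh4, Myh6, Myh7, Myh7b and Myh8, taken by gene symbol from the 55536 genes of the count tables. Their RNA was measured by RNA-seq in satellite cells, the stem cells of skeletal muscle, in 3 control and 3 cKO samples from adult male mice. Control mice were Pax7CreErt2;Hira fl/+ (the sample labels call them WT) and cKO mice were Pax7CreErt2;Hira fl/fl, so both groups carried the Cre and at least 1 floxed allele of Hira, the histone H3.3 chaperone gene. All received tamoxifen before injury of the tibialis anterior with barium chloride, and the Cre, driven from Pax7, acts in satellite cells and their descendants. Cells were sorted 5 days post-injury as CD34-positive and ITGA7-positive cells negative for CD45, TER119 and SCA1, and were then cultured for 48 h. The samples were described as independent RNA samples, without saying whether each came from a separate mouse, so p-values measure the spread between these samples. The deposited counts per sample summed to between 47944477 and 63323577. In cKO, RNA of the slow and cardiac heavy chains Myh7, Myh6 and Myh7b rose by 41.2% to 56.5%, while that of the embryonic, neonatal and fast forms Myh3, Myh8, Myh1 and Myh2 fell, by 11.2% for Myh8 at the least, and Myh2 fell by 22.1%. Myh4 did not pass the test, and the calls of Myh8 and Myh1 were lost with DESeq2 and with some samples left out. Myh3 remained the most abundant of the 8 genes in every sample.

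A myosin heavy chain carries the motor head that pulls on actin and the coiled-coil tail that packs into the thick filament of the sarcomere. Mammals express different heavy chains in different muscles and at different ages. Myh3 is the embryonic form and Myh8 the neonatal form, and both reappear in regenerating muscle. Myh2, Myh1 and Myh4 are the fast forms of adult fibres (IIa, IIx and IIb). Myh7 is the slow form, which is also the beta form of the heart, Myh6 is the alpha form of the heart, and Myh7b is an ancient slow-tonic form. In mm10, the plus strand of chromosome 11 holds, in this order, Myh3 (ENSMUSG00000020908, 67078300 to 67102291), Myh2 (ENSMUSG00000033196, 67171027 to 67197517), Myh1 (ENSMUSG00000056328, 67200052 to 67224575), Myh4 (ENSMUSG00000057003, 67238029 to 67260446) and Myh8 (ENSMUSG00000055775, 67277124 to 67308634). Myh6 (ENSMUSG00000040752, 54941921 to 54966927) and Myh7 (ENSMUSG00000053093, 54970684 to 54994626) are neighbours on the minus strand of chromosome 14. Myh7b (ENSMUSG00000074652) lies on chromosome 2, plus strand, from 155611212 to 155634307.

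Myh6, Myh7, Myh7b and Myh3 each host a microRNA in an intron. Mir6923, the one in Myh3, had 0 counts in every sample and is not printed. A mature sequence from each of Myh6, Myh7 and Myh7b is shown because these 3 hosts moved together in the comparison below, while Myh3 fell. The other arm of each is not printed. The RefSeq sequences (GRCm38.p6) are printed with the seed, bases 2 to 8, in capitals. Their positions are chr14:54949072-54949093 (in Myh6), chr14:54975710-54975731 (in Myh7) and chr2:155622893-155622913 (in Myh7b), each on the strand of its host.
mmu-miR-208a-3p: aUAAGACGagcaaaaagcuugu
mmu-miR-208b-3p: aUAAGACGaacaaaagguuugu
mmu-miR-499-5p: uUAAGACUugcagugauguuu
The 2 miR-208 forms have the same seed, and that of miR-499-5p differs from it only in its last base, base 8. The microRNA genes themselves had 0 to 3 counts per sample, which says nothing of the mature microRNAs, since total RNA libraries of this kind do not capture them.

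The promoters of 5 genes are shown as examples of genes that were lower (Myh3, Myh1) and higher (Myh7, Myh6, Myh7b) in cKO. Each is the 150 bases before a RefSeq start (GRCm38.p6), on the strand of the gene. Capitals mark motifs that a search found on either strand: the TATA box (TATAAA), the MCAT box of TEAD factors (CATTCC), the E-box of myogenic factors (CANNTG), the CArG box and the MEF2 site, the last 2 searched with alternative letters. No motif overlaps another in these windows.
Myh3, chr11:67078150-67078299, plus strand: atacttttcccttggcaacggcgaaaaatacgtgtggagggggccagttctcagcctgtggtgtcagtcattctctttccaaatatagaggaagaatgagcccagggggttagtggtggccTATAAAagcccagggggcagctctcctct
Myh1, chr11:67199952-67200101, plus strand: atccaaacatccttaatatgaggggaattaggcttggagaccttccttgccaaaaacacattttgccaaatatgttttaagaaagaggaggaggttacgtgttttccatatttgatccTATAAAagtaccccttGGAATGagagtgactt
Myh7, chr14:54994550-54994699, minus strand: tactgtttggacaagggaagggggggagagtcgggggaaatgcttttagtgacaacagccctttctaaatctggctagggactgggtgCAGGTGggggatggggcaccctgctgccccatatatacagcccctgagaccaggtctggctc
Myh6, chr14:54966608-54966757, minus strand: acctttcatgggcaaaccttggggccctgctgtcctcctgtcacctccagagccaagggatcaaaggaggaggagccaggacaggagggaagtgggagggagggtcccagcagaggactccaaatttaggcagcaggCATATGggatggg
Myh7b, chr2:155611093-155611242, plus strand: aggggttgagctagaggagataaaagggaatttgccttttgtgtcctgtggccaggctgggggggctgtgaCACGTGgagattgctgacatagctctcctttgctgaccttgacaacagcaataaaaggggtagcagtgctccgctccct
TATAAA lay 29 to 24 bases before the start in Myh3 and 32 to 27 bases before it in Myh1. These exact letters were not in the windows of Myh7, Myh6 or Myh7b. Near the start, Myh7 held tatata and Myh7b held aataaaa, and such other forms of a TATA box were not searched. Of the chromosome 11 genes whose promoters are not printed, Myh4 held TATAAA 31 to 26 bases before the start. Myh8 held it only on the minus strand (96 to 91 bases before the start), and the window of Myh2 held none of the motifs searched. Among 32851 RefSeq promoter windows of this length, 7.57% held TATAAA. An E-box was in the windows of Myh7, Myh6 and Myh7b, also in those of Myh4 and Myh8, and in 47.7% of all windows, so genes of both directions held one. CATTCC was found in Myh1, on the minus strand, and in 7.59% of all windows. Upstream of the 150 bases it also lay in Myh6 (206 to 201 bases before the start) and Myh4 (231 to 226). It lay 201 to 196 bases before the first RefSeq start of Myh7. The CArG box and the MEF2 site were in 0.916% and 0.332% of all windows and in none of these 5, while Myh4 held a CArG box. The Myh7 window belongs to the second of its 2 RefSeq starts. These matches describe letters in the window, and no binding was measured here.

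Reads of 75 bases can match more than 1 of these genes, which bears on every value that follows. The authors' aligner does not split reads over introns, so a read can be placed where 75 bases lie inside 1 exon. Of such windows, 19.8% of Myh1 were also present in another of the 8 genes, 17.6% of Myh2, 12.3% of Myh4, 6.09% of Myh8, 1.02% of Myh3, 15.5% of Myh6, 10.3% of Myh7 and 0% of Myh7b. Sharing stayed within a locus. The genes of chromosome 11 shared windows with each other, Myh6 shared with Myh7, and 0 windows of 1 locus were found in another. The longest identical coding stretch of Myh7 and Myh6 had 200 bases, in exon 38 of Myh7 (chr14:54972758-54972957) and exon 36 of Myh6 (chr14:54944348-54944547). It is printed in the direction of transcription because the sequence of a read inside it does not tell the genes apart.
Myh7 and Myh6: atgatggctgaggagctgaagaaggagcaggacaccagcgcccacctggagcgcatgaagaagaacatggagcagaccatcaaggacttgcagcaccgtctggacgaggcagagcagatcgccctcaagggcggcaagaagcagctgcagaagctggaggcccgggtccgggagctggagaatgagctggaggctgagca
Myh1 and Myh2 had an identical stretch of 233 bases, in exon 23 of each gene. In the longest transcripts, 17.8% of the Myh7 windows were also in Myh6, which would put 9.77 counts on Myh6 for every 100 on Myh7 if shared reads were split evenly and Myh6 were silent. Myh6 had 15.3 to 16.1 counts per 100 of Myh7 in the 6 samples, which is above that value in each sample, and how many of its counts are reads of Myh7 cannot be told apart. For Myh2 against Myh1 the corresponding values were 9.79 and 11 to 12.5. How the authors' counting treated reads with several matches is not given in the sources used here.

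**Figure D1:**
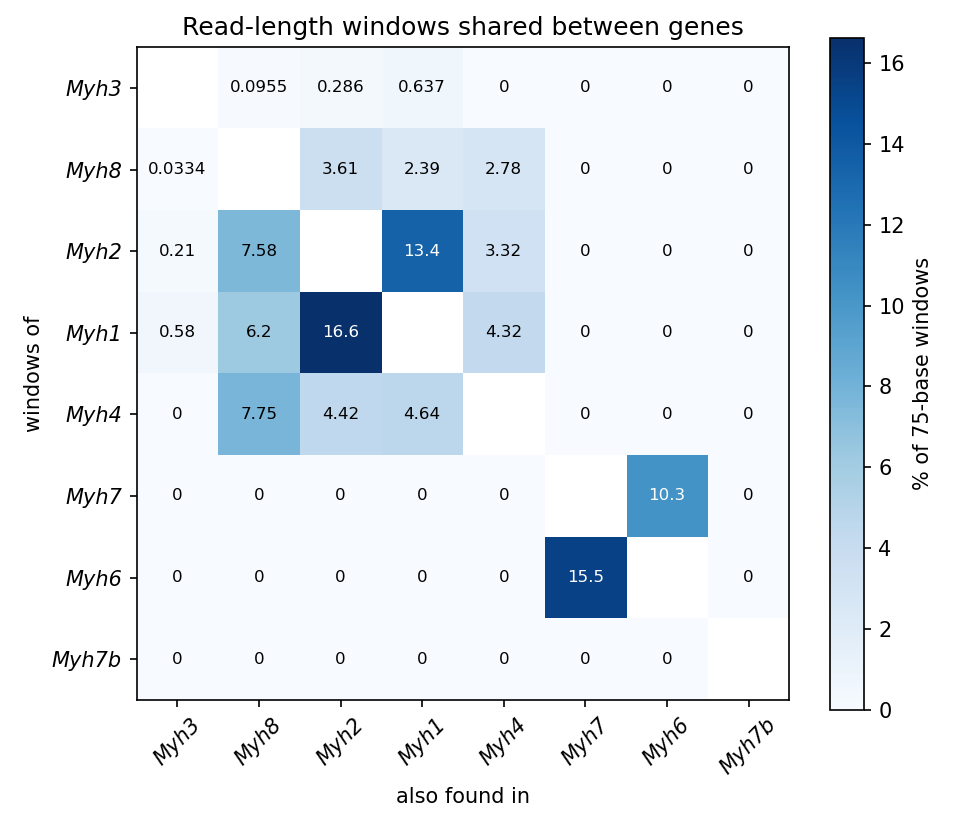
Percent of the 75-base windows lying inside an exon of the gene in a row that also occur in the gene in a column. Sharing was highest for Myh1 with Myh2 (16.6%) and Myh6 with Myh7 (15.5%), and Myh7b shared none.

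The targeted gene was examined first. For Hira, control replicates 1, 2 and 3 gave 375, 348 and 341 counts. The same replicates of cKO gave 161, 293 and 272. It fell in cKO, with a log2 fold change of -0.43 (SE 0.12, adjusted p = 0.0237, edgeR's quasi-likelihood test), and the groups did not overlap. Without control replicate 1 the adjusted p was 0.104, and without cKO replicate 1 the log2 fold change was -0.29 (adjusted p = 0.0459).

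The embryonic and neonatal genes both fell in cKO. In CPM (the counts of a gene divided by those of its sample and multiplied by 1000000), Myh3 was at 11037.7, 10689.7 and 10682 in control replicates 1, 2 and 3. In cKO it was at 9950.2, 9142 and 10125.5. The 3 cKO samples were thus lower than the 3 controls, and by mean CPM Myh3 ranked at place 3 of 55536 genes in each group. It fell by 11.3% in cKO, a log2 fold change of -0.17 (SE 0.04, adjusted p = 0.00696, edgeR). The neonatal gene Myh8 was at 616, 579.9 and 584 CPM in control and at 573, 476 and 556 CPM in cKO. The groups did not overlap, but cKO replicate 1 lay close to the lowest control. Myh8 fell by 11.2%, with a log2 fold change of -0.17 (SE 0.06, adjusted p = 0.0468, edgeR), just under the threshold of 0.05. This call was lost with DESeq2 (adjusted p = 0.213), with scaling by total counts alone (adjusted p = 0.0754), without any 1 of the control samples (adjusted p = 0.0852 to 0.155) and without cKO replicate 2 (log2 fold change -0.094, adjusted p = 0.062). In bulk RNA, fewer cells of a type and less RNA per cell cannot be told apart.

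Of the 3 adult fast genes, Myh1 and Myh2 fell and Myh4 did not pass the test. Myh1 (IIx) was at 2162, 2121 and 2119.8 CPM in control and at 2081, 1659 and 1882 CPM in cKO. Its log2 fold change was -0.21 (SE 0.06, adjusted p = 0.0227, edgeR), and the 3 cKO samples, all below the controls, were spread more widely than the controls. Without cKO replicate 2, its lowest sample, the log2 fold change was -0.13 (adjusted p = 0.0198). The call was lost with DESeq2 (adjusted p = 0.142), without any 1 of the control samples (adjusted p = 0.0623 to 0.0742) and without cKO replicate 3 (adjusted p = 0.057).

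Myh2 (IIa) was at 271, 259.6 and 264 CPM in control and at 233, 182 and 214 CPM in cKO. It fell by 22.1%, the largest decrease of the 8 genes, with a log2 fold change of -0.36 (SE 0.06, adjusted p = 0.000942, edgeR). Its call held in all 11 alternative fits, none of which changed how reads shared with Myh1 were placed. Myh4 (IIb) was at 102, 97.5 and 96.7 CPM in control and at 98.3, 76 and 93.1 CPM in cKO. Here the groups overlapped, since cKO replicate 1 lay above control replicates 2 and 3. The log2 fold change of -0.18 (SE 0.07) did not pass the test (adjusted p = 0.107, edgeR). It was -0.25 (adjusted p = 0.00451) without cKO replicate 1 and -0.071 (adjusted p = 0.233) without cKO replicate 2.

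The slow and cardiac genes went the other way. Myh7 was at 436, 430.5 and 426 CPM in control and at 641, 583 and 632 CPM in cKO. All cKO samples lay well above all controls, and Myh7 rose by 41.2%, a log2 fold change of 0.50 (SE 0.04, adjusted p = 2.35e-07, edgeR). By mean CPM it ranked at place 286 among all genes in control and at place 165 in cKO. Myh6 was at 68.1, 65.7 and 65.7 CPM in control and at 98.5, 94.1 and 99.9 CPM in cKO. It rose by 44.2% (log2 fold change 0.53, SE 0.04, adjusted p = 7.4e-08, edgeR), with the share of its reads that match Myh7 unknown. Counted as 1 gene, Myh6 and Myh7 together rose with a log2 fold change of 0.50 (SE 0.04, adjusted p = 1.74e-07, edgeR), a value to which the division of shared reads between them makes no difference.

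Myh7b, the slow-tonic form, shares no window with the other 7 genes. It was at 38.2, 39.0 and 37.3 CPM in control and at 59.7, 60 and 62.6 CPM in cKO. Its rise of 56.5% was the largest of the 8 genes, with a log2 fold change of 0.65 (SE 0.04, adjusted p = 1.31e-08, edgeR). Its lowest count in any sample was 2161, for which counting error alone is 2.15%, the largest among the 8 genes. The calls of Myh7, Myh6 and Myh7b held in all 11 alternative fits of each.

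**Figure D2:**
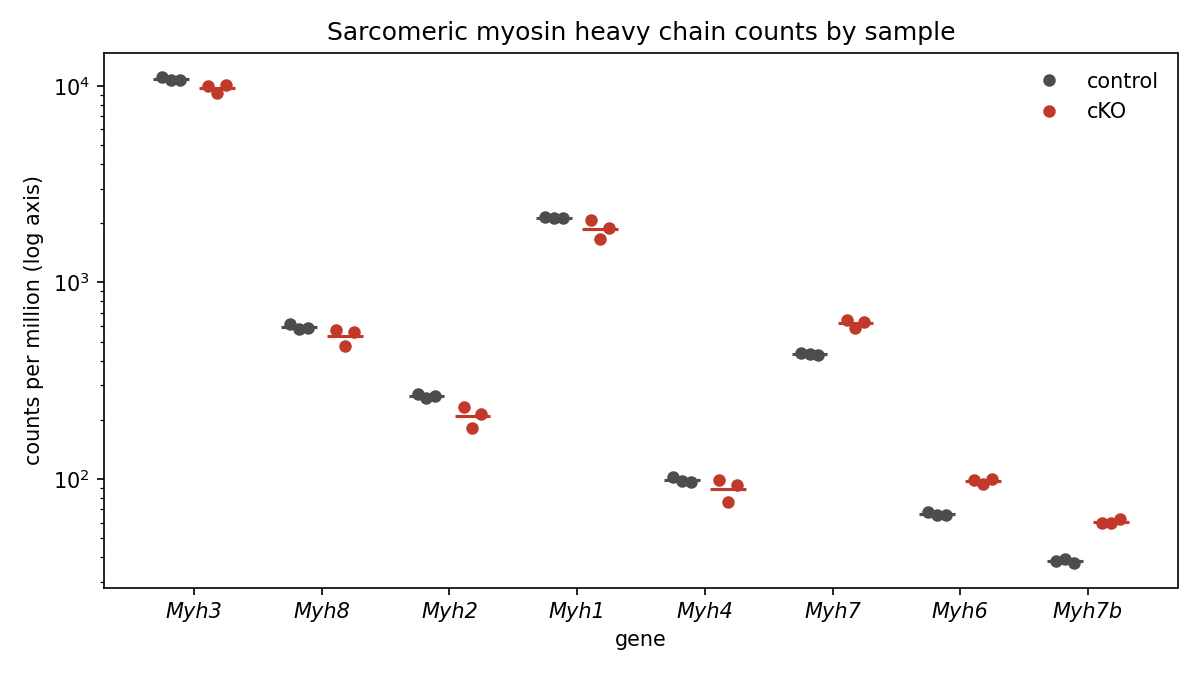
CPM of each gene in each sample on a log axis, with points for samples and lines for group means, control in grey and cKO in red. The slow and cardiac genes Myh7, Myh6 and Myh7b sit higher in all 3 cKO samples, while the embryonic, neonatal and fast genes sit lower, with overlap for Myh4.

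In all, 7 of the 8 genes passed the test, 3 higher and 4 lower in cKO. Among the 22404 genes tested, 15.8% passed, with 9.38% higher and 6.46% lower. The groups did not overlap in CPM for the same 7 genes, against 31.4% of all genes tested (20.3% with each cKO sample higher and 11.1% with each lower). The 5 genes of chromosome 11 had negative log2 fold changes, Myh4 without passing the test. The 3 genes of chromosomes 14 and 2 had positive ones. Locus coincides with the split into embryonic, neonatal and fast against slow and cardiac forms, so the 2 cannot be told apart. The summed counts of the 5 chromosome 11 genes fell, with a log2 fold change of -0.18 (SE 0.04, adjusted p = 0.00779, edgeR). The sum over all 8 genes, which Myh3 dominates, was 14732, 14283 and 14275 CPM in control and 13735, 12273 and 13665 CPM in cKO. It fell with a log2 fold change of -0.15 (SE 0.04, adjusted p = 0.0241, edgeR). This call was lost without any 1 of the control samples (adjusted p = 0.073 to 0.084), and the log2 fold change was -0.098 (adjusted p = 0.0186) without cKO replicate 2.

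**Figure D3:**
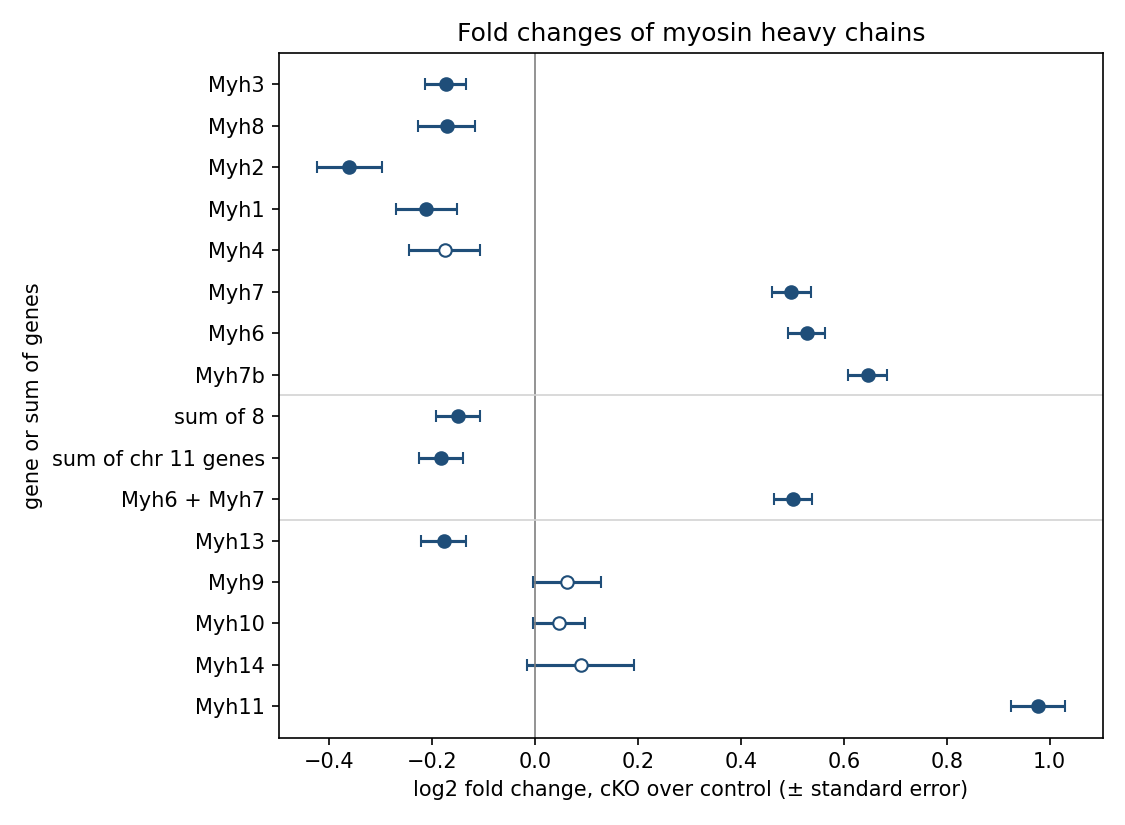
Log2 fold change, cKO over control, with its standard error from edgeR, for the 8 genes, for sums over genes and for other myosin II heavy chains. Filled points have an adjusted p under 0.05. The chromosome 11 genes among the 8, and Myh13, lie to the left of 0. Myh7, Myh6, Myh7b and Myh11 lie to the right, as do Myh9, Myh10 and Myh14, which did not pass.

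**Figure D4:**
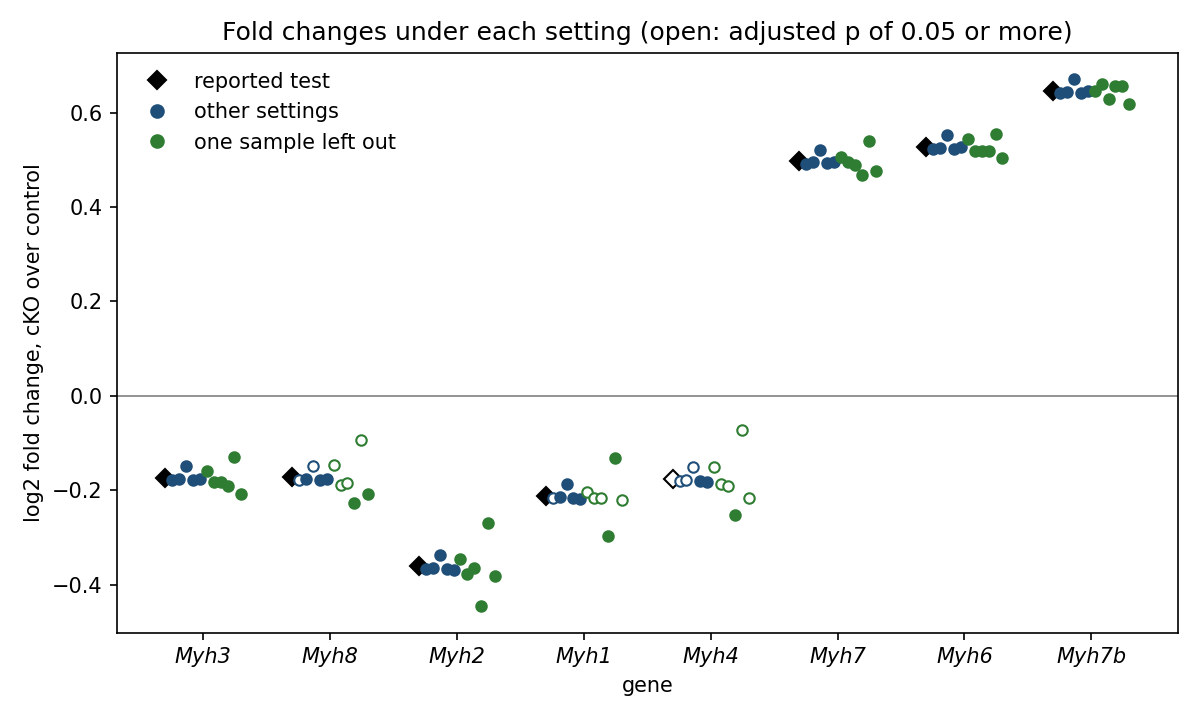
Log2 fold change, cKO over control, of each gene under the reported edgeR test (black diamonds), 5 other settings (blue) and leaving out 1 sample at a time (green), with open symbols for an adjusted p of 0.05 or more. No gene changed direction, and the open symbols belong to Myh8, Myh1 and Myh4.

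The make-up of the heavy chain RNA was then compared as shares, with the counts of each gene divided by its annotated exonic length and expressed as a percent of the sum over the 8 genes. Myh3 made up 78.0%, 77.9% and 77.9% in control and 75.8%, 77.8% and 77.5% in cKO. Myh1 made up 14.7% ± 0.0966 in control and 14.1% ± 0.893 in cKO (SD, n = 3 each), with overlap. With this length, the remaining 6 genes each held under 4%. The share of Myh7 was 2.18% ± 0.0197 in control and 3.44% ± 0.0455 in cKO (SD, n = 3 each). That of Myh6 went from 0.432% to 0.695%, and that of Myh7b from 0.251% to 0.439%. Together, the slow and cardiac genes took 2.85%, 2.89% and 2.86% of the control samples and 4.53%, 4.67% and 4.52% of the cKO samples. These values did not overlap, and the difference was 1.71 percentage points (exact two-sided permutation test, p = 0.1, the smallest p that 3 samples against 3 can give). Dividing by the longest annotated transcript, a choice made after seeing the data, gave other levels. Mean shares in control and cKO were then 2.90% and 4.55% for Myh7 and 4.04% and 3.98% for Myh8. For the slow and cardiac genes together they were 3.62% and 5.73%.

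By annotated exonic length, the share of Myh2 was lower in cKO, at 1.40% ± 0.0959 against 1.62% ± 0.0137 in control (SD, n = 3 each). The shares of Myh1, Myh4 and Myh8 overlapped between groups. The 5 genes with separated shares had an exact permutation p of 0.1, or 0.16 after adjustment over 8 genes, and no share can pass 0.05 in this exact test with 3 samples against 3. For Myh3 the separation was lost (p = 0.3, exact permutation test) when counts were divided by the number of read positions inside exons. Its difference of -0.878 percentage points was -0.281 without cKO replicate 1, the sample with the lowest Myh3 share.

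**Figure D5:**
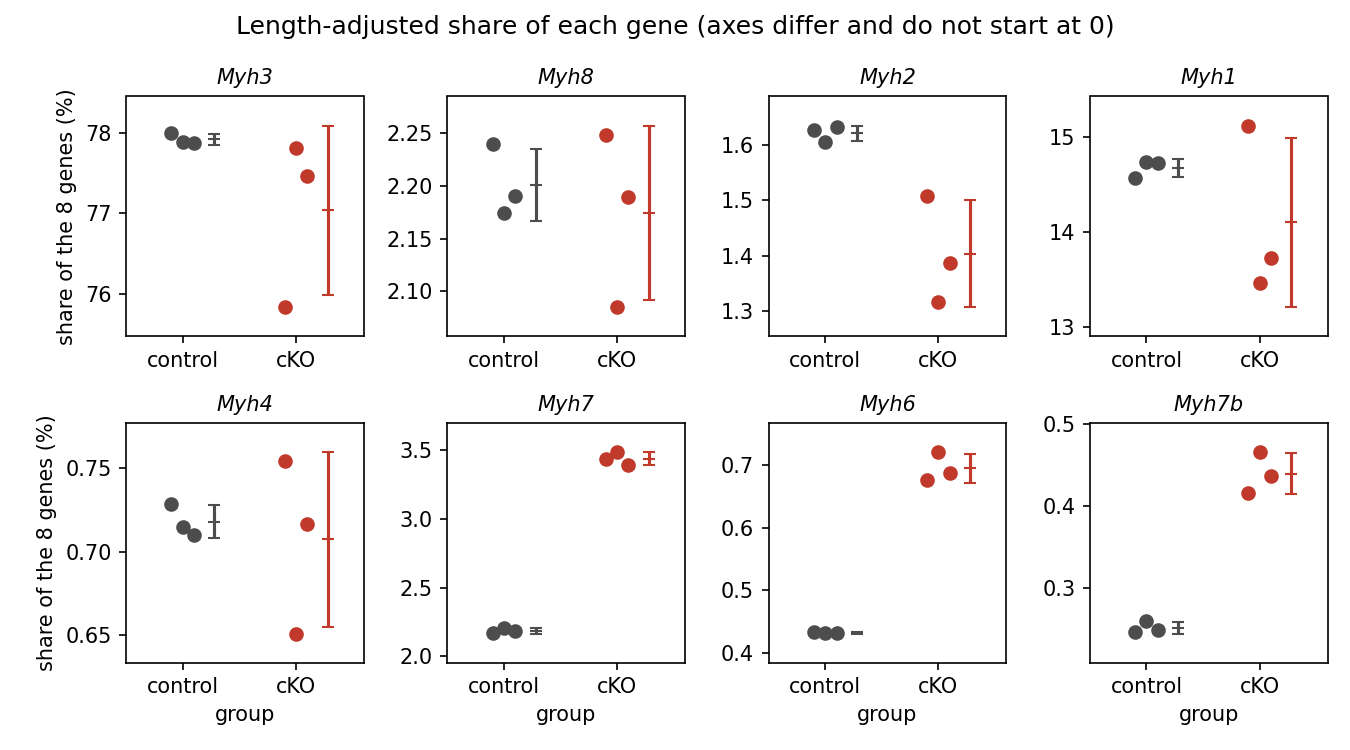
Share of each gene in the length-adjusted sum of the 8 genes, in percent, by group, with points for samples and bars for mean ± SD (n = 3). Axes differ between panels and do not start at 0. Myh7, Myh6 and Myh7b were separated upward in cKO, and Myh4, Myh8 and Myh1 overlapped.

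Levels between genes were compared per kilobase of the longest annotated transcript, since the longest transcripts of the 8 genes have 6016 to 6230 bases while merged exons run to 11772 bases for Myh8 and 8616 bases for Myh7. In control, the order of levels in CPM per kilobase was Myh3 (1791), Myh1 (351), Myh8 (96.5), Myh7 (69.1), Myh2 (43.5), Myh4 (16.4), Myh6 (10.9) and Myh7b (6.19), with no overlap between neighbours. In cKO, Myh7 (99.3) stood above Myh8 (87), and Myh6 (16) and Myh4 (14.8) overlapped. The place of Myh8 above Myh7 in control depended on the length used. Divided by merged exon length the 2 genes overlapped, and divided by read positions inside exons Myh7 stood above Myh8. In cKO, Myh7 stood above Myh8 under all 3 lengths.

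Ratios within a sample do not depend on library scaling. The log2 ratio of Myh7 to Myh3 was -4.66, -4.63 and -4.65 in control and -3.96, -3.97 and -4.00 in cKO. It was thus higher in each cKO sample, by 0.67 (SE 0.02; exact two-sided permutation test, p = 0.1, adjusted over 4 ratios 0.2). The log2 ratio of Myh7b to Myh7 was also higher in each cKO sample, by 0.15 (SE 0.04; exact permutation p = 0.1, adjusted 0.2), and this exact test cannot go below 0.1 with 3 samples against 3. Myh6 to Myh7 overlapped between the groups, with a difference of 0.031 (SE 0.02; exact permutation p = 0.3), and Myh8 to Myh3 overlapped with a difference of -0.0016 (SE 0.04; exact permutation p = 1).

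Other myosin II heavy chains were compared with the 8 genes. Myh13, an extraocular muscle form at the end of the chromosome 11 cluster, fell with a log2 fold change of -0.18 (SE 0.04, adjusted p = 0.011, edgeR). Its counts were 1.68 to 1.74 per 100 of Myh3, and an even split of the windows it shares with Myh3 would alone give 1.31 per 100, so its level is uncertain. Myh15 had 0 to 3 counts in every sample. The non-muscle forms Myh9, Myh10 and Myh14, which serve cell shape and division, did not pass the test, with log2 fold changes of 0.06, 0.05 and 0.09. Without cKO replicate 1, Myh9 and Myh10 did pass (log2 fold changes 0.16 and 0.11). Myh11, the smooth muscle form, was at 29.0, 26.7 and 28.6 CPM in control and at 54.2, 61.5 and 52.9 CPM in cKO, with no overlap. It rose with a log2 fold change of 0.98 (SE 0.05, adjusted p = 5.89e-09, edgeR).

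Genes that overlap a member on the opposite strand were examined, because the strand setting of the counting is not given in the sources used here. Myhas, antisense to Myh1 over 8.11% of its exonic bases, had 281 to 359 counts and a log2 fold change of -0.047 (adjusted p = 0.816, edgeR). Mhrt, antisense to Myh7, was counted 37, 51 and 60 times in control and 54, 80 and 62 times in cKO, a log2 fold change of 0.53 (SE 0.18) that did not pass the test (adjusted p = 0.064, edgeR, or 0.047 without control replicate 3). Gm31251, also antisense to Myh7, had 38 to 41 counts in control and 45 to 59 in cKO (log2 fold change 0.47, adjusted p = 0.102, edgeR). 9430073C21Rik, opposite Myh2, and Trpc4ap, opposite the end of Myh7b, had log2 fold changes of -0.16 and 0.016 and adjusted p of 0.48 and 0.86 (edgeR). Without strand, reads of a gene and of its antisense partner cannot be told apart.

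Genes for the proteins that build the thick filament with these heavy chains changed in both directions. Of 16 listed partner genes, 14 were tested, 8 fell and 2 rose (6.46% of all genes tested fell and 9.38% rose), with a median log2 fold change of -0.20 against -0.0011 over all genes tested. Without cKO replicate 2 the median was -0.13, and leaving out each sample gave 6 to 11 falls. Ttn, the giant spring that spans the thick filament, fell by 0.46 on the log2 scale (SE 0.03, adjusted p = 8.58e-08, edgeR). Myl4, the embryonic essential light chain, was at 1086, 1048 and 1040.4 CPM in control and at 926, 757 and 837 CPM in cKO. Its log2 fold change was -0.36 (SE 0.05, adjusted p = 0.000296, edgeR). The genes of the light chains that pair with slow and ventricular myosin rose, at very low counts. Myl2 was counted 20, 33 and 38 times in control and 54, 60 and 41 times in cKO (log2 fold change 0.90, SE 0.24, adjusted p = 0.0163, edgeR), a call lost without control replicate 1 (adjusted p = 0.0757). Myl3 was counted 54, 48 and 68 times in control and 78, 92 and 93 times in cKO (log2 fold change 0.76, SE 0.16, adjusted p = 0.00445, edgeR).

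Of 9 genes for myosin folding and turnover, among them the myosin chaperone gene Unc45b, the methyltransferase gene Smyd1 and the ubiquitin ligase gene Trim63, 0 passed edgeR's test, with a median log2 fold change of -0.084. At an unadjusted p under 0.05 there were 4, all lower, and with DESeq2 1 fell. Without cKO replicate 1, 4 fell. Of 19 regulators of Myh genes, 11 fell and 0 rose, with a median of -0.15, while 6.46% of all genes tested fell and 9.38% rose. At an unadjusted p under 0.05 (edgeR), 14 regulators were lower and 0 higher, and with DESeq2 11 fell and 0 rose. Mef2c, a factor of muscle differentiation, was at 585, 549.7 and 557 CPM in control and at 473, 440 and 472 CPM in cKO, and had a log2 fold change of -0.31 (SE 0.04, adjusted p = 3.07e-05, edgeR). Eya4, of the eyes absent family of cofactors, fell by 0.20 on the log2 scale (adjusted p = 0.000207, edgeR). Sox6, a repressor of slow genes, was at 20.8, 20.5 and 19.8 CPM in control and at 17.7, 17.9 and 18.6 CPM in cKO, with no overlap and a log2 fold change of -0.20 (SE 0.05, adjusted p = 0.00783, edgeR). Mef2a, another MEF2 factor gene, fell by 0.20 on the log2 scale (adjusted p = 0.000202, edgeR).

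Other genes of the slow and fast programmes changed in both directions. Of 12 slow fibre genes, 5 rose and 1 fell, with a median of 0.040. Over all genes tested, 9.38% rose and 6.46% fell. Beside Myl2 and Myl3, the tropomyosin gene Tpm3 rose by 0.22 on the log2 scale (adjusted p = 0.000388, edgeR), while Csrp3, a Z-disc protein gene, fell by 0.27 (adjusted p = 0.00271, edgeR). Counts are per gene, so forms of tropomyosin made from Tpm3, or from Tpm1 of the fast list, are not told apart. Slow troponin C and I, Tnnc1 and Tnni1, did not pass the test, while slow troponin T, Tnnt1, rose by 0.16 (adjusted p = 0.00834, edgeR). Myoz2 of the slow list also rose, by 0.20 (adjusted p = 0.019, edgeR). Of 11 tested fast fibre genes, 2 fell and 1 rose, with a median of -0.031, and 1 rise of 11 is near the share over all genes tested. The light chain genes Mylpf and Myl1 fell by 0.22 and 0.18 on the log2 scale (adjusted p = 0.0242 and 0.0116, edgeR), and Tpm1 rose by 0.20 (adjusted p = 0.000227, edgeR). The call of Mylpf was lost with DESeq2 (adjusted p = 0.157), without each control sample (0.0551 to 0.0897) and without cKO replicate 3 (0.0521), and its log2 fold change was -0.13 without cKO replicate 2. The call of Myl1 was lost without control replicate 1 (0.0559). Left-out samples moved these counts. Without cKO replicate 1, 4 slow genes fell (median 0.0054) and 5 fast genes fell (median -0.078), and without cKO replicate 2 the slow median was 0.095. Without control replicate 1, 3 slow genes rose and 2 fell, and 0 fast genes fell and 2 rose (fast median 0.0068). The slow rises were 3 without control replicate 2 or cKO replicate 3, and the fast falls were 1 without control replicate 2, control replicate 3 or cKO replicate 3. These lists share genes, since Myl2 and Myl3 are in the partner and slow lists, and Myl1 and Mylpf in the partner and fast lists.

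Markers of cell types also changed in cKO, where 9.38% of all genes tested rose and 6.46% fell. Of 9 differentiation markers, 7 fell and 1 rose, with a median of -0.24, and of 6 satellite cell and myoblast markers 5 fell, with a median of -0.16 and a summed level of 4806 to 4920.1 CPM in control and 4295 to 4639 CPM in cKO. Ttn, Mef2c, Myog and Myod1 are also in lists described above, and Des is both in the satellite cell and myoblast list and in the smooth muscle list. All 10 macrophage markers rose, with a summed level of 137 to 141 CPM in control and 289.8 to 340.2 CPM in cKO. Of 8 endothelial markers 5 rose (summed 30.0 to 31.5 and 44.3 to 53.0 CPM), of 6 tested fibroblast markers 4 rose (summed 527 to 553 and 783 to 875 CPM), and of 8 smooth muscle and pericyte markers 7 rose, Myh11 among them, and Des fell (summed 6362 to 6415 and 6386 to 6639 CPM). Since the slow and alpha forms are also heart genes, 10 cardiomyocyte markers were examined. Nppa had at most 1 count in any sample, Tbx5 at most 1 and Myl7 0. Nppb, Gata4 and Ryr2 had at most 10 in any sample and overlapped between groups. Nkx2-5, which was not tested, reached 3 at most in control samples, while cKO samples ranged from 3 to 11. The 3 of the 10 that were tested did not pass. Their log2 fold changes were 0.29 for Tnni3, 0.36 for Hcn4 and -0.073 for Tnnt2, with a median of 0.29. Tnni3 and Hcn4 had at most 38 and 16 counts in any sample. The summed level of the 10 markers, 751 to 784 CPM in control and 724 to 754 CPM in cKO, was nearly all Tnnt2, which myoblasts also express. The part of these cell types in the myosin values was not tested.

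Across the 6 samples, the genes whose log2 CPM was most like that of Myh3, among 10473 tested genes outside the family with a mean of at least 10 CPM, were Trap1, Vgll2, Klhl7, Edem3 and Tor3a (Pearson r from 0.993 for Tor3a to 0.9996 for Trap1). For Myh7 they were Mfsd1, Gas8, Plpp1, Cyp1b1 and Igfbp2 (r from 0.995 for Igfbp2 to 0.997 for Mfsd1). Within the family, Myh3 had r of 0.97 with Myh2 and 0.95 with Myh8, and Myh7 had r of 0.996 with Myh6 and 0.985 with Myh7b. These 6 points share 2 groups and their library sizes, so r describes the pattern and has no test here.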

How the data were processed

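RNA-seq counts of 6 samples were used, from 400 ng of RNA per sample depleted of ribosomal RNA and read as single ends of 75 bases. Per the labels and methods, the authors used Bowtie2 2.3.4.2 on mm10, then featureCounts 1.6.3 for the raw counts they deposited. The authors' normalized counts and their DESeq2 2.11.40.6 comparison of fold changes and p-values were not used. The members and lists were chosen with earlier results of these data known. Gene models were those of GENCODE M21, in which 55450 of 55536 identifiers were found.

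Counts were filtered with filterByExpr, scaled by TMM and tested with edgeR 4.0.16 (quasi-likelihood, genotype as the term, Benjamini-Hochberg over 22404 genes) in R 4.3.3, after a test on simulated data. The standard error is the absolute log2 fold change divided by the square root of F. Shares and ratios used exact permutation tests over 20 splits. Alternatives were DESeq2 1.42.0, other scalings, no filter, a replicate block and leaving out each sample. Depth was 47944477 to 63323577 counts. Named genes were the members, up to 4 genes per list that passed with separated groups, other myosin II heavy chains, Hira, overlapping genes and the 5 most similar genes. Unc45b, Smyd1, Trim63, Tnnc1, Tnni1, Tnnt1, Myoz2, Tnnt2, Tnni3, Hcn4, Myog, Myod1, Nppa, Nppb, Tbx5, Myl7, Nkx2-5, Gata4, Ryr2 and Des were named after their values were seen. Exact tests were run with scipy 1.17.1 in Python 3.11.15.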

Additional observations from a re-analysis of the deposited data

How the results depend on the processing

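Of the 8 genes, Myh2, Myh3, Myh6, Myh7 and Myh7b kept their direction and call in all 11 alternative fits. None of these fits changed how reads shared between genes were placed. With DESeq2 the log2 fold changes of Myh1 (-0.22) and Myh8 (-0.18) no longer passed, and with scaling by total counts alone that of Myh8 (-0.15) did not. That of Myh4 passed with no filter (-0.18) and with the replicate block (-0.18). With no filter, adjusted p were far smaller than in the reported test, and the cause was not tested. Leaving out each sample gave -0.30 to -0.13 for Myh1, -0.25 to -0.071 for Myh4, -0.23 to -0.094 for Myh8 and -0.18 to -0.098 for the sum of the 8. It gave 917 to 1673 genes lower in cKO, against 1448. Without cKO replicate 2, the share difference reversed for Myh4 (0.018) and Myh8 (0.018), as did the Myh8 to Myh3 ratio (0.035, and 0.010 without control replicate 1), and the log2 fold changes of Myh9 (-0.012) and Myhas (0.059), none of which had passed a test. Over samples left out, Myh9 ranged from -0.012 to 0.16, Myhas from -0.13 to 0.059 and Trpc4ap from -0.0069 to 0.057. Trpc4ap, near 0, was -0.0069 and -0.0050 without control replicates 2 and 3 and -0.0025 without cKO replicate 1. The differences of share over samples left out were -0.034 to 0.018 points for Myh4 and -0.063 to 0.018 for Myh8, and those of the Myh8 to Myh3 ratio -0.037 to 0.035. For the lists, the ranges were 1 to 3 rises and medians of -0.23 to -0.13 (thick filament partners), 0 to 4 falls (folding and turnover), 3 to 6 rises, 1 to 4 falls and medians of 0.0054 to 0.095 (slow), and 1 to 2 rises and 0 to 5 falls (fast). Scaling by total counts gave 2 fast rises.

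Same-numbered samples did not deviate together (correlations of -0.015 to -0.0045 over 3 pairs). With only 3 pairs, this check cannot exclude that the number pairs samples. The replicate block gave 1901 genes higher and 1251 lower in cKO, against 2101 and 1448, and changed the call of Myh4 alone among the 8 genes. With sign flips within the numbers, the Myh7 to Myh3 difference of 0.67 had an exact p of 0.25, the smallest this allows. Dividing counts by the length of the longest transcript, chosen after seeing the data, turned no share difference. It did change levels, with a mean Myh8 share of 4.04% in control against 2.20% by exonic length. Counting error for the 8 genes was at most 2.15%, that of Myh7b, whose spread between samples was of similar size.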

Other observations

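A ratio added after seeing the data compared the fast genes Myh2 and Myh1, which are neighbours on chromosome 11. The log2 ratio of Myh2 to Myh1 was -3.00, -3.03 and -3.01 in control replicates 1, 2 and 3 and -3.16, -3.19 and -3.14 in cKO replicates 1, 2 and 3. It was lower in each cKO sample, by 0.15 on average (SE 0.02), with an exact permutation p of 0.1, or 0.167 adjusted over 5 ratios. Of the windows in the longest Myh1 transcript, 17.8% are also in Myh2, and how many counts of Myh2 are reads of Myh1 cannot be told apart.

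cKO replicate 2 was the lowest sample for Myh3, Myh8, Myh2, Myh1 and Myh4. Among cKO samples it was also the lowest for Myh7 and Myh6, and its heavy chain counts were 1.23% of the library, against 1.37% in each of the other cKO samples and 1.43% to 1.47% in control.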
